A study of Mus musculus with 9 samples.

Results

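Transcripts of 10 secreted chemokines and cytokines (Ccl2, Ccl7, Cxcl1, Cxcl5, Cxcl10, Cxcl12, Il6, Csf1, Lif and Il33) were followed through 9 RNA-seq libraries of a dormancy-prone mouse breast cancer line. The 10 genes were chosen by name, as genes for secreted immune signals, and each stood on 1 of the 55487 gene rows of the deposited table. Of the 10, 9 passed the filter on low counts, and Cxcl12 did not. All libraries came from D2.0R (also written D2.OR), 1 mammary adenocarcinoma cell line, stained with the division-diluted dye CellTrace Far Red (CTFR) and held for a week in DMEM with 2% FBS, after which dye-retaining and dye-poor cells were separated by flow cytometry. The labels name CTFR-positive (quiescent), CTFR-negative (proliferative) and bulk samples, each numbered 1 to 3, but the same text stands on all 9, and their titles are told apart by a serial number alone. No library could therefore be given a kind, none is treated as a replicate of another, and values are given library by library under the title number, with no mean or test between kinds. The sources used here do not say how many cultures the libraries came from.

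Chemokines are small secreted proteins that draw immune cells along a gradient by binding G protein-coupled receptors, and they are sorted into CC and CXC families by the spacing of conserved cysteines. The ELR-bearing CXC chemokines Cxcl1 and Cxcl5 act on Cxcr2 and recruit neutrophils, Ccl2 and Ccl7 act on Ccr2 and recruit monocytes, Cxcl10 acts on Cxcr3 of T and natural killer (NK) cells, and Cxcl12 on Cxcr4. Il6 and Lif signal through receptors that share the gp130 chain (Il6st) and activate STAT3, Csf1 sustains macrophages through Csf1r, and Il33 is a nuclear cytokine of the IL-1 family that is released from damaged cells and binds ST2 (Il1rl1). Many of these genes are textbook targets of NF-kB.

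Library totals ran from 18732737 estimated counts (library 9) to 41243036 (library 7), so 1 CPM, a TMM-scaled unit of abundance relative to library size, rested on 18.3 to 40.4 counts. Mitochondrial genes held 1.31% to 2.05% of the counts. Mki67, which encodes the proliferation antigen Ki-67, reached 62.9, 106 and 149 CPM in libraries 2, 5 and 8, and at 4.98 to 28.1 CPM in the other 6. Libraries were not assigned to a kind from these values. Intervals given below are exact 95% intervals (Poisson for a level, conditional binomial for a ratio), which cover counting error only, since PCR copies cannot be recognised in these counts.

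The most abundant of the 10 transcripts were those of the neutrophil chemokines Cxcl5 and Cxcl1 and of the monocyte chemokine Ccl2, whereas Ccl7 ranked lower. On the scale of CPM per kb of exon, the median over the libraries was 485 for Cxcl5, 239 for Cxcl1, 140 for Ccl2, 24.8 for Csf1, 12.4 for Il6, 9.59 for Lif, 4.57 for Ccl7, 1.30 for Cxcl10, 0.668 for Il33 and 0 for Cxcl12. Cxcl5 thus lay above 99.6% of the tested protein-coding genes per length and Il33 above 9.41%. Cxcl5 exceeded Cxcl1 in 9 of 9 libraries, although their ranges over the libraries overlapped. Cxcl1 exceeded Ccl2 in 6 of 9, Il6 exceeded Lif in 7 of 9 and Cxcl10 exceeded Il33 in 6 of 9, so those neighbours had no fixed order. The ranges of Ccl2 and Csf1, of Csf1 and Il6, and of Ccl7 and Cxcl10 did not overlap.

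Of the 9 genes that passed the filter, 8 were variable over the libraries. A gene is called variable when a chi-square test of dispersion finds more than counting noise (Benjamini-Hochberg adjusted p under 0.05 over all genes tested) and its highest library is at least 2-fold above its lowest on the log2 CPM scale. By this rule 28% of the 12813 genes tested were variable. The median range of the 9 genes was 1.59 on the log2 scale, against 0.69 over all genes tested. All 9 passed the chi-square test alone, as did 94.1% of the genes tested, so the size of the range, not the test, set the 8 apart from Lif. Since the libraries are of mixed kinds, the test does not say whether sorting, culture or library preparation made the difference, and in bulk RNA fewer expressing cells and less RNA per cell cannot be told apart.

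**Figure D1:**
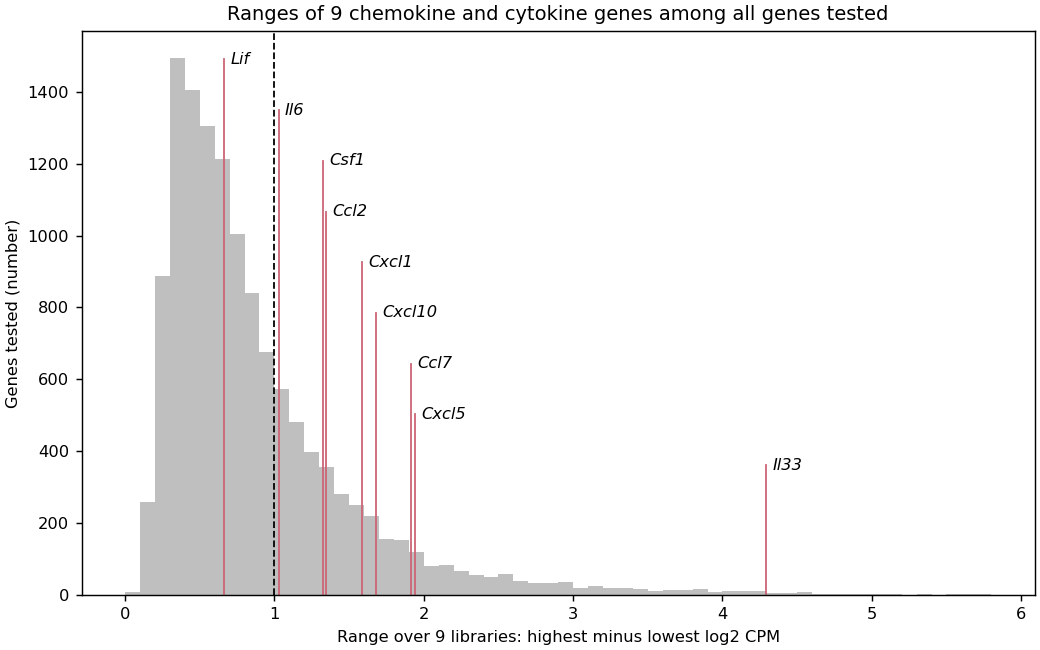
Number of genes tested (vertical axis) by the range over the 9 libraries, highest minus lowest log2 CPM (horizontal axis), with red lines at the 9 measured chemokine and cytokine genes (line heights only separate the names) and a dashed line at the 2-fold limit. Lif, at 0.66, lies left of the limit, Il6, at 1.03, just right of it, and Il33, at 4.29, far into the tail.

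Cxcl1 and Cxcl5, whose products share the receptor Cxcr2, did not follow the same order. Cxcl1 (ENSMUSG00000029380, chromosome 5 at 90891241 to 90893115, plus strand, GRCm38) stood at 549, 260 and 552 CPM in libraries 1 to 3, at 447, 246 and 481 CPM in libraries 4 to 6, and at 323, 184 and 467 CPM in libraries 7 to 9. Libraries 2, 5 and 8 were the lowest 3 of the 9, all below the other 6. The highest library (3) was 3.00-fold above the lowest (8), with an interval of 2.92 to 3.09. Cxcl5 (ENSMUSG00000029371, chromosome 5 at 90759360 to 90761624, plus strand), 129617 bases from Cxcl1, stood at 1444, 1211 and 1497 CPM in libraries 1 to 3, at 894, 997 and 903 CPM in libraries 4 to 6, and at 389, 647 and 538 CPM in libraries 7 to 9. Its levels fell into 3 steps by title number that did not overlap. Libraries 1 to 3 lay above and libraries 7 to 9 below all others. Over all genes tested, libraries 1 to 3 lay wholly above the rest for 3.92% and wholly below for 2.71%, and libraries 7 to 9 wholly above for 3.28% and wholly below for 4.1%. Its highest library (3) was 3.85-fold above its lowest (7), interval 3.78 to 3.92.

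Because depth cancels within a library, the ratio of the pair shows the divergence directly. Cxcl5 per kb over Cxcl1 per kb was 2.65, 4.69 and 2.73 in libraries 1 to 3, 2.01, 4.07 and 1.89 in libraries 4 to 6, and 1.21, 3.54 and 1.16 in libraries 7 to 9. The middle library of each run of 3 had the highest ratio, and the ratio in library 2 was 4.05 times that in library 9. The promoter of Cxcl1 in RefSeq (GRCm38.p6, chr5:90890995-90891294, plus strand, 250 bases before to 50 after the gene's start) is shown because it holds the NF-kB consensus, in capitals, in 2 overlapping matches that begin 71 and 70 bases before the start:
Cxcl1: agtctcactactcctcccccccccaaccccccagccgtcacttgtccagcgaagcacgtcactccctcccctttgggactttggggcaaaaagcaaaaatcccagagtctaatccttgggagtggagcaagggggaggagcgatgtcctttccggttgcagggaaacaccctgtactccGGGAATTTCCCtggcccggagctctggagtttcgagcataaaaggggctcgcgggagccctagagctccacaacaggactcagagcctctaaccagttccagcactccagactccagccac
Cxcl5 had no entry in the promoter table used here, nor had Ccl2 and Ccl7.

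**Figure D2:**
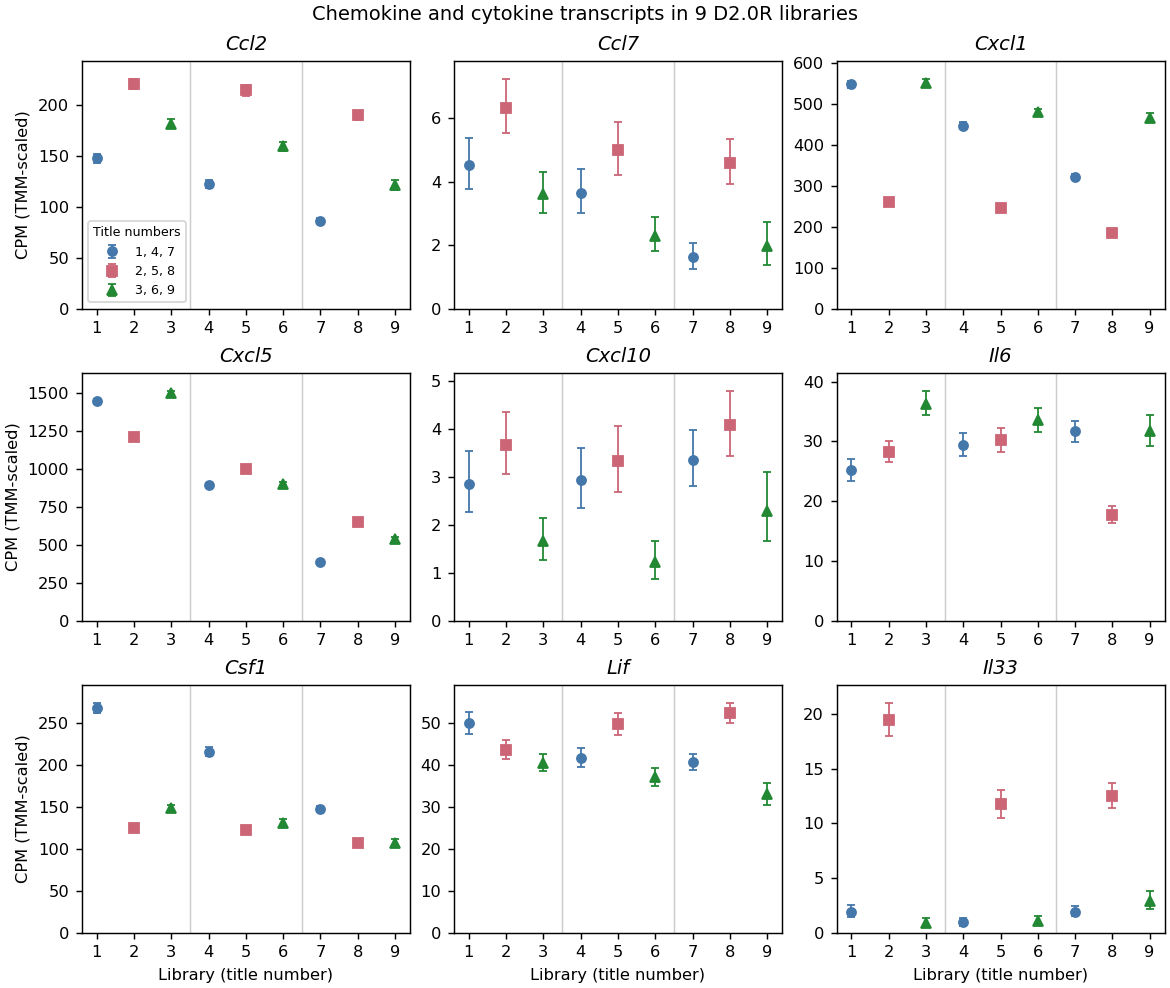
TMM-scaled CPM (vertical axes, from 0) of the 9 measured genes in each library (horizontal axes, title number), with exact 95% Poisson intervals as bars, thin lines between runs of 3 title numbers, and colours and shapes for the place in each run. Libraries 2, 5 and 8 are highest for Ccl2, Ccl7 and Il33 and lowest for Cxcl1, while Cxcl5 steps down between the runs.

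The monocyte chemokines Ccl2 and Ccl7, neighbours on chromosome 11 with 8259 bases between them, ranked the same 3 libraries highest. Ccl2 (ENSMUSG00000035385, 82035571 to 82037453, plus strand) stood at 147, 220 and 182 CPM in libraries 1 to 3, at 122, 214 and 159 CPM in libraries 4 to 6, and at 86.5, 190 and 122 CPM in libraries 7 to 9. Ccl7 (ENSMUSG00000035373, 82045712 to 82047525, plus strand) stood at 4.53, 6.34 and 3.62 CPM in libraries 1 to 3, at 3.66, 4.99 and 2.30 CPM in libraries 4 to 6, and at 1.63, 4.60 and 1.97 CPM in libraries 7 to 9. For both genes libraries 2, 5 and 8 lay above the other 6, and library 2 was highest and library 7 lowest. For Ccl7 the margin was within counting error, since library 8 (interval 3.93 to 5.35 CPM) was only just above library 1 (3.78 to 5.38 CPM). For Ccl2 the intervals of library 8 (185 to 194 CPM) and library 3 (177 to 186 CPM) overlapped slightly. The highest library exceeded the lowest 2.54-fold for Ccl2 (interval 2.44 to 2.65) and 3.88-fold for Ccl7 (2.94 to 5.19). Without library 7 the range of Ccl2 was 1.84-fold and no longer met the 2-fold limit. Per length there were 22.9 to 48.7 Ccl2 transcripts for each of Ccl7, lowest in library 1 and highest in library 6.

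**Figure D3:**
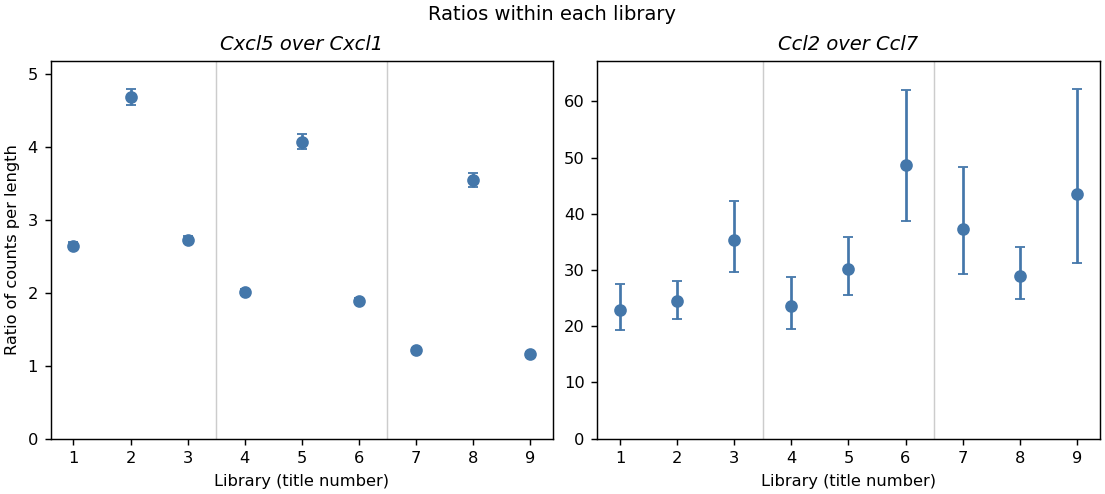
Ratio of counts per length in each library (horizontal axes, title number) of Cxcl5 over Cxcl1 (left) and of Ccl2 over Ccl7 (right), both from 0, with exact 95% intervals as bars. On the left the middle library of each run stands at 3.54 to 4.69 and the others at 1.16 to 2.73, while on the right the wide bars reflect the low counts of Ccl7.

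Cxcl10 (ENSMUSG00000034855, chromosome 5 at 92346638 to 92348889, minus strand), an interferon-induced chemokine for T and NK cells, was low throughout. It stood at 2.86, 3.67 and 1.67 CPM in libraries 1 to 3, at 2.93, 3.33 and 1.23 CPM in libraries 4 to 6, and at 3.36, 4.08 and 2.30 CPM in libraries 7 to 9. In every run of 3 the middle library was highest and the last lowest. The intervals of the first and middle library overlapped in each run, so their order was within counting error. They were nearest in libraries 4 (2.36 to 3.61 CPM) and 5 (2.69 to 4.06 CPM). Libraries 3, 6 and 9 lay below the other 6, by a gap that the counting intervals of library 9 (1.66 to 3.11 CPM) and library 1 (2.27 to 3.55 CPM) span. The highest library exceeded the lowest 3.32-fold, with an interval of 2.33 to 4.84 (chi-square test, adjusted p 2.56e-14), in libraries 8 and 6. Its exons share 133 bases with those of Art3 on the opposite strand, a gene with 17 counts in all libraries together against 822 for Cxcl10. The promoter of Cxcl10 (chr5:92348840-92349139, minus strand) is shown because it holds NF-kB consensus matches, in capitals, at 159 bases and, overlapping, at 104 and 103 bases before the start, and the core letters AANNGAAA of the interferon response element at 211 bases:
Cxcl10: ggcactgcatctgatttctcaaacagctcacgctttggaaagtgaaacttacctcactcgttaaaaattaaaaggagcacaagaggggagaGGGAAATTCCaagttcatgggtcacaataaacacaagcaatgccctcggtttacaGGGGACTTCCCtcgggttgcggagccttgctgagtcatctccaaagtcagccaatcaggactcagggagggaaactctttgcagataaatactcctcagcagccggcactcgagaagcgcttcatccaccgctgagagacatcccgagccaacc
Among the 32851 RefSeq promoters searched on both strands, 11.2% held the NF-kB consensus and 23.9% the core of the interferon response element.

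Cxcl12 (ENSMUSG00000061353, chromosome 6), the ligand of Cxcr4, had 5 counts in the 9 libraries together and at most 2 in any of them. A count of 3, taken as the detection floor, is worth 0.0742 CPM in library 7 and 0.164 CPM in library 9. It was therefore not detectable at this depth, and no range is given.

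The gp130 cytokines Il6 and Lif varied least. Il6 (ENSMUSG00000025746, chromosome 5 at 30013114 to 30019981, plus strand) stood at 25.2, 28.3 and 36.3 CPM in libraries 1 to 3, at 29.4, 30.2 and 33.5 CPM in libraries 4 to 6, and at 31.7, 17.7 and 31.7 CPM in libraries 7 to 9. Library 8 alone stood low. Il6 was 2.05-fold higher in library 3 than in library 8, with an interval of 1.86 to 2.25 that includes the 2-fold limit. The range was 1.44-fold without library 8, and Il6 was not called without library 3 either. Lif (ENSMUSG00000034394, chromosome 11 at 4257557 to 4272514, plus strand) stood at 49.98, 43.7 and 40.6 CPM in libraries 1 to 3, at 41.7, 49.7 and 37.1 CPM in libraries 4 to 6, and at 40.7, 52.3 and 33.0 CPM in libraries 7 to 9. The last library of each run was the lowest of its run. Lif varied 1.59-fold (interval 1.45 to 1.74), between libraries 8 and 9, which passed the chi-square test (adjusted p 4.82e-41) but lay under the 2-fold limit, where 48.0% of the genes tested had a smaller range. The promoter of Il6 (chr5:30012864-30013163, plus strand) is shown for its NF-kB consensus match, in capitals, at 44 bases before the start, with a C/EBP element (TTGCNNAA) at 128 bases and an AP-1 element (TGANTCA) at 249 bases:
Il6: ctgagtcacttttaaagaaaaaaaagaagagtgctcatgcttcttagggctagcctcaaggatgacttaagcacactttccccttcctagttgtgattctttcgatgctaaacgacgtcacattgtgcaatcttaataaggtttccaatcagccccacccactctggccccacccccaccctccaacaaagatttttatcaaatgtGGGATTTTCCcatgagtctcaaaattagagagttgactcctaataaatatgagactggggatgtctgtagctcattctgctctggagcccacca
The C/EBP element occurred in 10.8% and the AP-1 element in 7.81% of all promoters searched.

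Csf1 (ENSMUSG00000014599, chromosome 3 at 107741048 to 107760469, minus strand), the macrophage growth factor gene, was highest in the first library of each run. It stood at 267, 124 and 148 CPM in libraries 1 to 3, at 215, 122 and 131 CPM in libraries 4 to 6, and at 147, 107 and 106 CPM in libraries 7 to 9. Libraries 1 and 4 stood well above the rest, whereas library 7 lay within counting error of library 3 (intervals 143 to 151 and 144 to 152 CPM). The range was 2.51-fold (interval 2.39 to 2.64), between libraries 1 and 9, and 2.02-fold without library 1.

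Il33 (ENSMUSG00000024810, chromosome 19 at 29925114 to 29960718, plus strand), the alarmin gene, differed most. It stood at 1.92, 19.5 and 0.934 CPM in libraries 1 to 3, at 0.956, 11.7 and 1.10 CPM in libraries 4 to 6, and at 1.93, 12.5 and 2.90 CPM in libraries 7 to 9. Libraries 2, 5 and 8, with 685, 339 and 457 counts, stood far above the others, which held 29 to 78 counts. The nearest intervals, 10.5 to 13.1 CPM in library 5 and 2.17 to 3.79 CPM in library 9, were wide apart. The highest library (2) exceeded the lowest (3) 20.8-fold, with an interval of 14.7 to 30.5, and without library 2 the range was still 13.6-fold. Of all genes tested, 99.7% had a smaller range. Both RefSeq promoters of Il33 (chr19:29924863-29925162 and chr19:29945540-29945839, plus strand) are shown beside that of Cxcl1, because libraries 2, 5 and 8 were the highest 3 for Il33 and the lowest 3 for Cxcl1. Neither holds the NF-kB consensus letters, so neither has capitals. The first has the core AANNGAAA at 200 and the TATA box letters TATAAA at 203 bases before the start, and the second has the letters TATAAA at 29 and the C/EBP element at 85 bases:
Il33, first: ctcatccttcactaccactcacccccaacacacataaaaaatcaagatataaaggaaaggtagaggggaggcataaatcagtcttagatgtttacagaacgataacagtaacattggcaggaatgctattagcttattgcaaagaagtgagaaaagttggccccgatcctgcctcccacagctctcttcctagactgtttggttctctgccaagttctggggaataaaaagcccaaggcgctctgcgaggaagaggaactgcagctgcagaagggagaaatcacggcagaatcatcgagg
Il33, second: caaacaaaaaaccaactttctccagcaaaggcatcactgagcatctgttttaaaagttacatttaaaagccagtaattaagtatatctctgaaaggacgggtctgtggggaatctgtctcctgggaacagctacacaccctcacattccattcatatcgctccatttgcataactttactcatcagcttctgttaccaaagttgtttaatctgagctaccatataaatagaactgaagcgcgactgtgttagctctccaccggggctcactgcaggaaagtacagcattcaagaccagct
The letters TATAAA, at any place on either strand, occurred in 13.6% of all promoters searched. Of the 7 genes with a RefSeq promoter, 5 held the NF-kB consensus in it (Cxcl1, Cxcl10, Il6, Csf1 and Lif), as did 11.2% of all promoters searched. Many of these genes are textbook NF-kB targets, so the count is a description, and no difference was tested. A match is a description of these letters, and the absence of one says nothing of the factor. Cxcl10, which holds the NF-kB consensus, was like Il33 highest in the middle library of every run. For Cxcl10, unlike Il33, the middle library was within counting error of the first in each run. Whether these letters go with the order of the libraries was not tested.

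The title numbers are not a condition, so the sets they form are described without a test. Libraries 2, 5 and 8 lay wholly above the other 6 for 3 of the 9 genes (Ccl2, Ccl7 and Il33) and wholly below for 1 (Cxcl1). Over all genes tested the shares were 19% above and 20.1% below, so separation of these libraries was common in the table and not a mark of these genes. Libraries 3, 6 and 9 lay wholly above the rest for Il6 (background 5.15%) and wholly below for Cxcl10 and Lif (background 3.46%). The Il6 gap, 31.7 CPM in each of libraries 9 and 7, was far within counting error, and its separation ended with either other scaling. The Lif gap, 40.6 CPM in library 3 (interval 38.5 to 42.7) and 40.7 CPM in library 7 (38.7 to 42.7), was within counting error too, and its separation ended with library totals alone. Libraries 1, 4 and 7 lay apart for none of the 9 genes, against 6.34% above and 4.39% below in the table, and libraries 4 to 6 for none, against 0.039% and 0.0312%.

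Genes with the most similar course were sought among 11370 named genes that passed the filter, by the root mean square difference of median-centred log2 CPM over the 9 libraries. The difference is not scaled to a gene's range, so it reflects the width of the range as well as the course. Its size is therefore not comparable between a wide-ranging gene such as Il33 and narrower ones. Ccl2 was closest to Rgl1 (0.09) and Adamts6 (0.11), and Ccl7 to Arhgef4 (0.13) and Cables1 (0.15). These 4 were, like Ccl2 and Ccl7, highest in library 2 and lowest in library 7, which follows largely from choosing them by likeness over the same libraries. Cxcl5 was closest to Adamts7 (0.11) and Cyp1b1 (0.14), and Cxcl1 to Coro6 and Foxq1 (0.17 each). Csf1 was closest to Cdh23 and Map7 (0.13 each), Il6 to Tcn2 (0.13) and Rnf130 (0.14), and Cxcl10 to Fndc4 (0.23) and Ehd4 (0.26). Nearest to Il33 were P4ha3, at 0.57, which ran from 22.2 CPM in library 8 to 1.60 CPM in library 1, and Olfml3, also at 0.57. Among the 36 pairs of the 9 measured genes, the difference was smallest for Ccl2 and Ccl7 (0.36) and for Ccl2 and Lif (0.38). It was largest for Cxcl1 and Il33 (2.31), with the same limit on reading it as likeness of course.

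Of 27 other chemokines listed, 9 passed the filter, which asks for counts in every library, and 15 of the other 18 stayed below 1 CPM throughout. The remaining 3 reached 2.56 CPM in library 2 (Cxcl15), 2.27 CPM in library 8 (Ccl17) and 1.25 CPM in library 1 (Cxcl2), each with 0 counts in at least 1 library. Of the 9, 7 were variable (77.8%, against 28% of all genes tested), with a median range of 1.69 on the log2 scale. Cx3cl1, the membrane-bound chemokine fractalkine, stood at 299, 529 and 153 CPM in libraries 1 to 3, at 182, 388 and 82.1 CPM in libraries 4 to 6, and at 79.4, 238 and 40.3 CPM in libraries 7 to 9. It combined both patterns, highest in the middle of each run and lower from run to run. Cxcl3, a further Cxcr2 ligand, ran from 40.7 CPM in library 1 to 1.80 CPM in library 9, a range of 22.5-fold (interval 16.0 to 32.9), with libraries 7 to 9 below all others. Cxcl16 stood in the same 3 steps as Cxcl5, at 17.4 to 19.2 CPM in libraries 1 to 3, 10.5 to 14.0 CPM in libraries 4 to 6 and 5.93 to 9.17 CPM in libraries 7 to 9. Ccl5 ran the other way, at 1.22 to 1.45 CPM in libraries 1 to 3 and 3.07 to 3.34 CPM in libraries 7 to 9, against 1.56 to 1.84 CPM in between. Narrow margins were those of Ccl5 between libraries 2 (1.45 CPM) and 6 (1.56 CPM), and of Cxcl16 between libraries 4 (10.5 CPM) and 8 (9.17 CPM). No counting intervals were computed for them. Over all genes tested, libraries 1 to 3 lay wholly above the rest for 3.92% and wholly below for 2.71%. For libraries 7 to 9 the shares were 3.28% and 4.1%. Ccl9 was at 6.03 to 7.99 CPM in libraries 2, 5 and 8 and at most 2.01 CPM elsewhere. Those 3 libraries lay wholly above the rest for 19% of all genes tested. Ccl8 and Ccl25 had ranges of 3.90-fold and 2.01-fold, from 2.67 and 10.5 CPM, both in library 6, to 0.684 CPM in library 8 and 5.20 CPM in library 5.

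Of 24 other cytokines listed, 14 passed the filter. Of these, 7 were variable (50%, against 28% of all genes tested), with a median range of 1.11. Tgfb3, a growth inhibitory cytokine gene, stood at 509, 432 and 291 CPM in libraries 2, 5 and 8 and at 130 to 189 CPM in the others. Il18 and Il15, cytokines that activate NK cells, were likewise higher in those 3 libraries, at 5.27 to 6.74 CPM against 1.17 to 3.00 CPM for Il18 and 3.28 to 4.78 CPM against 1.53 to 2.96 CPM for Il15. Gdf15, a stress-induced cytokine gene, was lower there, at 2.25 to 3.31 CPM against 3.76 to 11.3 CPM. Between libraries 8 and 1 the margins were narrow, 3.28 against 2.96 CPM for Il15 and 3.31 against 3.76 CPM for Gdf15. Counting intervals were not computed for these margins. Over all genes tested, libraries 2, 5 and 8 lay wholly above the rest for 19% and wholly below for 20.1%. Il34, the second ligand of Csf1r, ran from 12.7 CPM in library 1 to 5.34 CPM in library 6, and was lowest in libraries 3, 6 and 9. Il11 and Csf3 were variable at low levels, with highest values of 1.78 and 1.02 CPM.

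Of the receptors, those for the IL-6 family and Il33 were detected at unequal levels, while those through which chemokines recruit leukocytes stayed near 0. The median CPM per kb ran from 46.8 for Il6st down to 0.258 for Il1rl1. Il1rl1 was thus low, above 3.03% of the tested protein-coding genes per length. Of 15 listed receptor genes, 6 passed the filter and all 6 were variable, against 28% of all genes tested. The other 9 stayed below 1 CPM in every library. Cxcr2 and Cxcr3 had 1 count each in the 9 libraries together, Ccr2 had 32 and Cxcr4 had 26. Csf1r, the receptor of Csf1 and Il34, reached at most 0.104 CPM, with 14 counts in all. Il6st, the gp130 gene, ran from 708 CPM in library 2 to 319 CPM in library 7, and Il6ra, the IL-6 binding chain, from 22.5 CPM in library 1 to 7.44 CPM in library 7. Il6ra stood at 18.9 to 22.5 CPM in libraries 1 to 3 and at 7.44 to 12.5 CPM in libraries 7 to 9, with libraries 4 to 6 in between. Its margins were narrow, 18.9 CPM in library 3 against 17.4 in library 5, and 13.2 in library 6 against 12.5 in library 8. No counting intervals were computed for them. Libraries 1 to 3 lay wholly above the rest for 3.92% of all genes tested, and libraries 7 to 9 wholly below for 4.1%. Il1rl1, the gene of the Il33 receptor ST2, was highest in the same libraries as Il33, at 3.55, 3.95 and 5.94 CPM in libraries 2, 5 and 8. In the other 6 it stood at 0.849 to 1.83 CPM. Il1rap, its partner chain, had its highest level, 130 CPM, in library 9 and its lowest, 54.6 CPM, in library 2, where Il33 was highest. Lifr, the Lif receptor gene, stood at 22.1 to 26.0 CPM in libraries 2, 5 and 8 and at 9.04 to 16.3 CPM in the others. Ackr3, a scavenger receptor of Cxcl12, stood at 3.64 to 5.42 CPM against 0.962 to 2.90 CPM in the same split. Over all genes tested, libraries 2, 5 and 8 lay wholly above the rest for 19%.

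**Figure D4:**
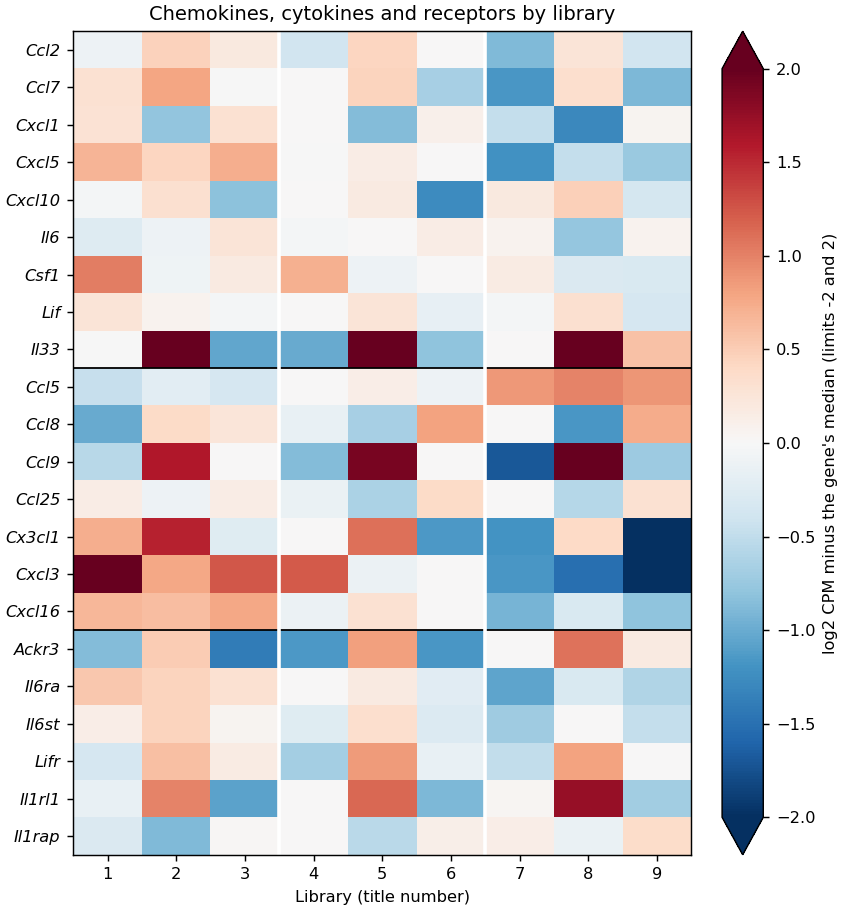
Difference in log2 CPM from each gene's median library (colour, limited to 2 either way) in each library (columns, title number) for the 9 measured chemokine and cytokine genes (top), the 7 variable genes among the other chemokines (middle) and the 6 variable receptor genes (bottom). Il33, Ccl9 and Il1rl1 are high in libraries 2, 5 and 8, and Cxcl5, Cxcl16 and Il6ra fade from the first run to the last.

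All 21 listed NF-kB pathway genes passed the filter and 3 of them were variable (14.3%), with a median range of 0.62 on the log2 scale, against 0.69 over all genes tested. Rela, the p65 subunit, ran only from 133 to 97.1 CPM. Nfkbia, the inhibitor IkB-alpha and itself an NF-kB target, stood at 99.4 to 104 CPM in libraries 1 to 3 and at most 87.2 CPM in the others. Tnfaip3, the inhibitor A20, ran from 11.3 CPM in library 2 to 3.45 CPM in library 9, and Il1r1, the IL-1 receptor, from 80.2 CPM in library 5 to 25.7 CPM in library 7. Of 11 genes around JAK and STAT3, 4 were variable (36.4%), with a median range of 0.90. Stat3 itself ran only from 367 to 320 CPM. Socs3 and Socs1, feedback inhibitors of cytokine receptors, were higher in libraries 2, 5 and 8 than in the others, Socs3 at 268 to 332 against 106 to 216 CPM and Socs1 at 7.47 to 9.50 against 2.08 to 4.14 CPM. Pim1, a STAT target kinase, was lower there, at 14.5 to 19.4 against 19.7 to 33.6 CPM. Its margin was narrow, 19.4 CPM in library 2 against 19.7 CPM in library 7, and no counting interval was computed for it. Over all genes tested, libraries 2, 5 and 8 lay wholly above the rest for 19% and wholly below for 20.1%. Cebpd ran from 249 CPM in library 3 to 65.4 CPM in library 9. Of 11 genes of cytokine mRNA decay, 2 were variable (18.2%): Zfp36, which encodes the AU-rich element binding protein tristetraprolin, at 207 CPM in library 5 and 49.7 CPM in library 7, and its relative Zfp36l1, at 447 CPM in library 3 and 147 CPM in library 7.

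Markers of leukocytes and endothelium gave little signal. Of 9 macrophage markers 7 stayed below 1 CPM in every library, and the sum of the list ran from 16.1 CPM in library 1 to 6.13 CPM in library 8, nearly all of it Cd68 and Cd14. Of 9 other leukocyte and NK markers 8 stayed below 1 CPM, with Ncr1, Klrk1, Nkg7 and Gzma at 0 in all libraries. The sum was 1.39 to 2.99 CPM, nearly all of it Klrb1c, at 1.36 to 2.94 CPM. Of 6 endothelial markers 4 stayed below 1 CPM, Cdh5 at 0, and the sum was 9.02 to 15.9 CPM. Most of it was Egfl7, at 6.79 to 12.0 CPM, and Vwf, at 1.11 to 4.25 CPM. Of the 9 fibroblast markers 5 stayed below 1 CPM, while Col1a1, Col3a1, Pdgfra and Pdgfrb were abundant, and the sum ran from 7897 CPM in library 2 to 2692 CPM in library 1. Of 8 epithelial tumour cell markers, Epcam, Krt19 and Krt5 stayed below 1 CPM and Krt14 reached at most 1.31 CPM. Krt8 stood at 146 to 662 CPM, Krt18 at 38.0 to 156, Cdh1 at 5.46 to 13.0 and Esr1 at 3.61 to 15.8 CPM. The part of the fibroblast-type genes in the results above was not tested.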

How the data were processed

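Poly(A) RNA of 9 D2.0R libraries was sequenced. The authors deposited RSEM expected counts (estimated counts per gene), already whole and not normalised. Per the submitters' processing notes, tools included STAR 2.7.8a and RSEM 1.3.3, with cutadapt 2.3 and FastQC 0.11.8, and the build was GRCm38. The sources used here name neither the annotation release nor whether strand was used, so a gene cannot be told from an antisense partner. The 5 rows that name no mouse gene held 0 counts and were left out. All 9 columns matched a sample title.

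Counts were scaled by TMM in edgeR 4.0.16 (R 4.3.3). Log2 CPM used a prior count of 2, which understates ranges of low genes. The filter, run without groups, required about 10 counts at the median library size in every library and 15 in total. It kept 12813 genes with 99.9% of the counts. With no groups there was no coefficient for a quasi-likelihood test, so a chi-square test of dispersion was used, after checking it on simulated counts. Lengths (all exons merged) and gene coordinates are those of GENCODE M21, on GRCm38. Of the 50-base windows of the 10 genes' transcripts, none occurred in another gene's transcripts except 0.693% for Cxcl5. Named genes are the 10, every variable gene of 6 pathway lists (1 listed gene is not reported here), the 2 nearest genes of each variable member, and Mki67. Cxcl15, Ccl17, Cxcl2, Rela, Stat3, Csf1r, Ccr2, Cxcr2, Cxcr3, Cxcr4, Art3 and single markers of other cell types were named after their values were seen. The genes and lists were chosen with earlier results of these data known.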

Additional observations from a re-analysis of the deposited data

How the results depend on the processing

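With DESeq2's median-of-ratios size factors, library totals alone, other filters, a prior count of 0.5 or any library left out, 7 or 8 of the 9 measured genes were variable. With a limit of 1.5 on the log2 scale there were 5, and 1636 genes in the table instead of 3592. With no filter on low counts 6412 genes were variable. Il6 was 1.97-fold with totals alone and 1.998-fold with no filter, under the limit in both. Of 1 library left out at a time, only library 7 ended the call of Ccl2 and only libraries 3 and 8 that of Il6. Among the 9 genes, libraries 1, 4 and 7 lay apart for 1 (Csf1) with median-of-ratios factors, and libraries 3, 6 and 9 for 1 (Cxcl10) with totals alone. With totals alone, Cxcl10 also joined the genes highest in libraries 2, 5 and 8. Why these values moved was not tested. The separations of Ccl2, Ccl7, Cxcl1, Cxcl5 and Il33 held with all 3 scalings. Depth limits Ccl7, Cxcl10 and the low libraries of Il33 most, each with under 100 counts in some libraries. No paired analysis was possible because the labels give no library a group.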
